A study of Mus musculus with 6 samples.

Results

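This section describes the 2 hepcidin genes of the mouse, Hamp and Hamp2, and 8 genes that regulate hepcidin or carry iron in fasted livers with and without the transcription factor CREBH. The genes were taken by name: every array probe named for Hamp, Hamp2, Bmp6, Hfe, Hfe2, Tfr2, Tfrc, Tmprss6, Slc40a1 or Trf was a member, which gave 10 of the 28908 gene names on the array and 15 of its 45281 probes. An exact match of the array's gene name found 13 of these probes for 9 genes. The other 2 probes were listed under Trfr2, an older name of Tfr2, and were included.

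The tested mice were labelled Creb3l3 KO, 3 males of C57BL/6 background deficient in the gene that encodes CREBH, and their controls were 3 male wild-type (WT) littermates of the same background. All mice ate normal chow and went without food for 24 h, and the liver of each gave 1 array, an Illumina WG-6 bead array on which the signal of a probe is the mean brightness of its beads in arbitrary units. The sources used here do not give the allele, the age of the mice or the cells in which Creb3l3 was lost. The comparison asks which transcripts of the fasted liver differ when CREBH is missing.

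Hepcidin is a peptide hormone that hepatocytes secrete. It binds ferroportin, the only known iron exporter of animal cells, and causes its degradation, so that less iron enters the plasma. Its gene is driven by bone morphogenetic protein (BMP) signals through SMAD factors when iron is high and by interleukin-6 through STAT3 in inflammation. CREBH, a transcription factor anchored in the endoplasmic reticulum and released by cleavage, has been described as an activator of the Hamp promoter in mice under endoplasmic reticulum stress.

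The 250 bases before the annotated starts of both hepcidin genes are shown because the 2 genes are close paralogs and because these windows hold elements through which hepcidin is known to be regulated. Both come from RefSeq, build GRCm38.p6, and are read on the minus strand, from chr7:30944030-30944279 for Hamp and from chr7:30924182-30924431 for Hamp2. Capitals mark matches to GGCGCC, the core of a BMP-responsive element, to TTCNNNGAA, the core bound by STAT factors, and to TGACATCA, a relative of the cyclic AMP response element (CRE).
Hamp: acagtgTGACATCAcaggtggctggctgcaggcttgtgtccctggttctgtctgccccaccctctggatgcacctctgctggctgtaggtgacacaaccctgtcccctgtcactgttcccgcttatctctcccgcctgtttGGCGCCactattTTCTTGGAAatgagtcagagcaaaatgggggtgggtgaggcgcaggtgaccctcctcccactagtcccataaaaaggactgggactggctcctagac
Hamp2: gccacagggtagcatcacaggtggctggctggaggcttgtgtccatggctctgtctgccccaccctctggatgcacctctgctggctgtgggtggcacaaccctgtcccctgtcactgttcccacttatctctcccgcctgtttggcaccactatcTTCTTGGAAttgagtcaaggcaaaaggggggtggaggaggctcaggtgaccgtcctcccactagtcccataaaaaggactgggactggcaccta

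The windows were 91.9% identical over 247 aligned bases, with 20 substitutions. Counting from 1 at the 5′ end of the Hamp window, with the base of Hamp first and that of Hamp2 last, 1 substitution lay in the BMP-responsive core (G145A) and 2 in the CRE-like match (G8A and A9G). The Hamp window therefore held GGCGCC, from base -109 to base -104 relative to the start, and the Hamp2 window did not. Both windows held 1 STAT core, from -97 to -89 in Hamp and from -94 to -86 in Hamp2, followed without overlap by TGAGTCA, which resembles the site of AP-1 factors. Neither held TGACGT, the CRE core, CCACG, a piece of an endoplasmic reticulum stress element, or the E-boxes CAGCTG and CACGTG. TGACATCA and TGAGTCA were added after these sequences had been read. Of 32851 annotated windows of 250 bases, searched on both strands, 9.59% held GGCGCC, 7.02% TTCNNNGAA, 6.47% TGACGT, 28.3% CCACG, 13% CAGCTG, 6.02% CACGTG, 2.93% TGACATCA and 4.46% TGAGTCA. The matches describe letters in these windows, and binding was not measured. Promoter windows were found for 6 of the 10 genes.

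**Figure D1:**
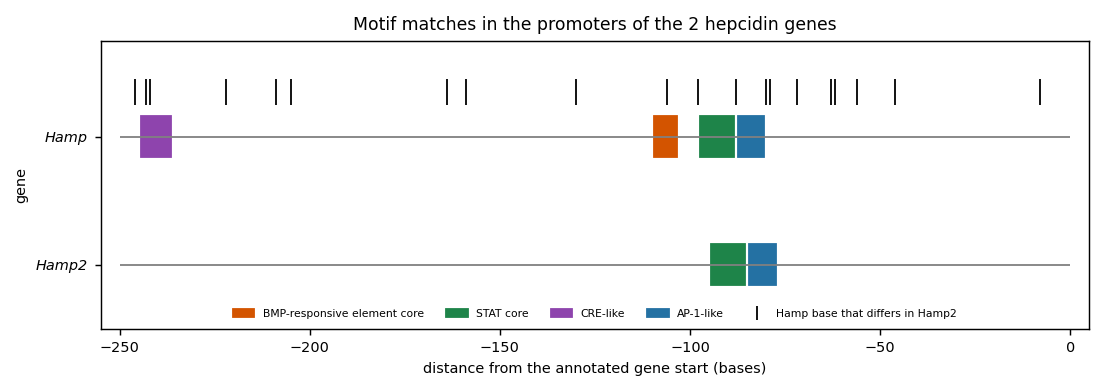
Distance in bases from the annotated start (x axis) of motif matches, drawn as coloured boxes to scale, in the 250 bases before Hamp and Hamp2 (y axis), with black ticks at the Hamp bases that differ in Hamp2. Both genes carry the STAT and AP-1-like matches, and Hamp alone of the 2 carries the BMP-responsive core and the CRE-like match.

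The arrays were not equally bright. A detection p under 0.05 (the array software's test of a signal against its negative control beads) was reached by 11846, 15867 and 4302 probes on KO arrays 1, 2 and 3 and by 15504 to 16224 on the WT arrays, and mean signals were 149, 246 and 87.3 against 219 to 252. Across probes, which are not independent replicates, the correlation of KO array 3 with any other array was 0.738 to 0.752, and pairs among the remaining 5 arrays reached 0.966 to 0.992. Log2 levels and changes below are therefore from KO arrays 1 and 2 and the 3 WT arrays after background correction and quantile normalization, and for the iron genes the values from all 6 arrays are given beside them. Creb3l3 itself fell to a normalized log2 level of 7.40 ± 0.07 (SD, n = 2) in KO livers, against 9.72 ± 0.02 (SD, n = 3) in WT livers, with an adjusted p of 0.00271 in limma. With all 6 arrays its log2 change was -2.72 ± 0.39 (SE; adjusted p = 0.574). Whether its single probe lies within the deletion is unknown from the sources used here. The hepatocyte transcripts Apoa1 and Ttr had signals of 16999 to 28461 on these 5 arrays. The brightest Alb probe reached 142 to 223, and Tat, another marker of the list of 7, did not pass the detection filter. Of the 6 tested hepatocyte markers, 2 had a log2 change above 0 and 4 below it (median -0.02). Apoa1 and Ttr stood at -0.07 ± 0.17 and -0.04 ± 0.15 (SE). Cyp2e1, named after its value was seen, stood at -0.47 ± 0.15 (SE; adjusted p = 0.333 in limma), with groups that did not overlap.

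Both hepcidin genes had higher levels in the KO livers than in any WT liver on the 5 arrays, by 2.60-fold for Hamp and 2.80-fold for Hamp2, but neither passed the adjusted threshold. None of the regulators or carriers passed it either. Of the 10 genes, 9 had a probe that reached a detection p below 0.05 on 3 or more of the 5 arrays and were tested, and limma called 0 of them at an adjusted p under 0.05, where 0.342% of all 14345 tested probes were called, 0.0627% as higher and 0.279% as lower. At an unadjusted p under 0.05 there were 5 of 9, against 12.1% of all tested probes: 3 higher (Hamp, Hamp2 and Slc40a1), against 4.66%, and 2 lower (Tmprss6 and Trf), against 7.47%. The groups did not overlap for 6 of 9, against 29.3% of all tested probes, 4 of them higher (12.9% of all) and 2 lower (16.4% of all). Among the 4 higher was Tfr2, with a log2 change of only 0.06. The 9 genes are each counted at their brightest probe, while these shares are over all tested probes, dim ones included. By sign, 2 of 9 lay below 0 where 54.7% of all tested probes did. The median log2 change was 0.10 over the 9 genes and -0.03 over all tested probes. Across all 6 arrays 0% of 14494 probes were called and 3.85% had an unadjusted p under 0.05. In that fit 1 of the 9 genes had such a p, and 8 of 9 lay below 0.

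**Figure D2:**
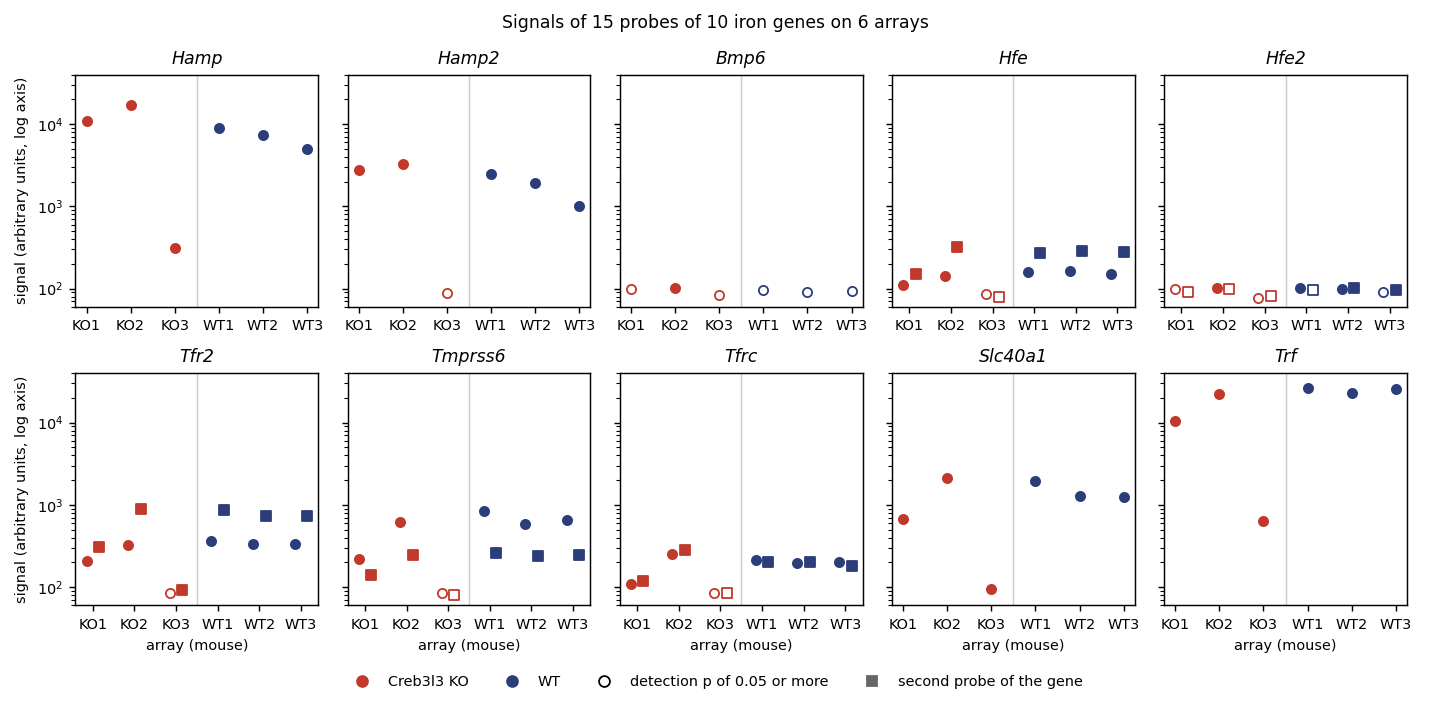
Deposited signal in arbitrary units (y axis, log scale) of each probe on each array (x axis), KO mice in red and WT mice in blue, with open symbols where the detection p was 0.05 or more and squares for a gene's second probe. Hamp and Hamp2 on KO arrays 1 and 2 lie above all WT arrays, Trf lies below them, and Bmp6 and Hfe2 stay near the background of about 100 units that dim probes share.

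Hamp encodes hepcidin. Its deposited signal was 10784, 17172 and 312 in KO mice 1, 2 and 3, against 9042, 7302 and 4935 in WT mice 1, 2 and 3. The 2 brighter KO arrays were above every WT array, although KO array 1 had the lower mean signal. Divided by the mean signal of its own array, Hamp stood at 72.3, 69.7 and 3.57 in KO mice 1, 2 and 3, against 35.8, 33.2 and 22.5 in WT mice. Normalized, it had log2 levels of 14.09 and 13.81 in KO mice 1 and 2, against 12.76, 12.76 and 12.19 in WT mice, so the groups did not overlap. The means were 13.95 ± 0.20 (SD, n = 2) and 12.57 ± 0.33 (SD, n = 3), a log2 change of 1.38 ± 0.22 (SE; 95% interval 0.87 to 1.89). The adjusted p was 0.0609 in limma, the 62nd smallest p among the 14345 probes.

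The direction of Hamp was the same under each of the 18 other settings tried, with log2 changes of 0.98 to 1.68, and its side of the threshold was not. It was called higher under 7 of them, and adjusted p-values ran from 0.00756 to 0.776. With all 6 arrays the log2 change was 1.10 ± 0.34 (SE), with an adjusted p of 0.653. The dim KO array 3 can be read in another way, added after the values were seen, by the place of a probe among all signals of its own array. On KO arrays 1, 2 and 3, 33, 47 and 107 probes were brighter than Hamp, against 154, 154 and 254 on the WT arrays. By place, Hamp was thus higher on all 3 KO arrays than on any WT array. Quantile normalization also sets levels by the order of signals, so this reading is not independent of the 6-array fit. Hamp levels there were 13.84, 13.55 and 12.85 in KO mice 1, 2 and 3, against 12.51, 12.51 and 11.93 in WT mice. A two-sided exact permutation test gave p = 0.1, the smallest that 3 mice against 3 allow, and 0.15 after adjustment over the 3 genes read in this way (Hamp, Hamp2 and Trf). These 3 were picked with their values known, so the p-values add nothing to the separation itself. Other member probes, not detected on KO array 3, also separated by place. The brighter Tmprss6 probe had 2147, 1997 and 19566 brighter probes on KO arrays, against 1609, 1774 and 1616 on WT arrays. The dimmer Hfe probe had 7746, 7989 and 10577, against 7223, 5992 and 6604. The share of all probes that separate by place is not given here, so how unusual such a separation is cannot be said.

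Hamp2 encodes a second hepcidin of mice, whose peptide, unlike that of Hamp, did not lower iron when overexpressed in mice. Its deposited signal was 2774, 3266 and 88.4 in KO mice 1, 2 and 3, against 2472, 1930 and 1015 in WT mice. The signal of KO mouse 3 was not above background (detection p 0.0929). As for Hamp, KO arrays 1 and 2 were above all WT arrays and WT mouse 3 was lowest of the WT mice. Normalized log2 levels were 12.63 and 11.32 in KO mice 1 and 2, against 10.82, 10.79 and 9.85 in WT mice. The log2 change was 1.49 ± 0.42 (SE; 95% interval 0.52 to 2.46; adjusted p = 0.266 in limma), with KO mice that differed from each other by more than for Hamp (SD 0.93, against 0.56 in WT mice). With KO mouse 2 alone it was 0.83 and with KO mouse 1 alone 2.15. In all 6 arrays, where KO array 3 did not detect Hamp2, the change was -0.34 ± 1.54 (SE; adjusted p = 0.903). By place, 173, 465 and 6164 probes were brighter than Hamp2 on KO arrays 1, 2 and 3, against 637, 651 and 1131 on the WT arrays, so that the groups overlapped (exact permutation p = 1).

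Over the 5 arrays the profile of Hamp2, centred on its own mean, differed from that of Hamp by a root mean square of 0.36 on the log2 scale, and 49 other tested probes lay closer. The median over all tested probes was 0.75. The 2 genes are so alike in sequence that a probe for one may also bind transcripts of the other. Probe sequences were not used here, so whether the 2 probes measure separate transcripts was not tested.

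**Figure D3:**
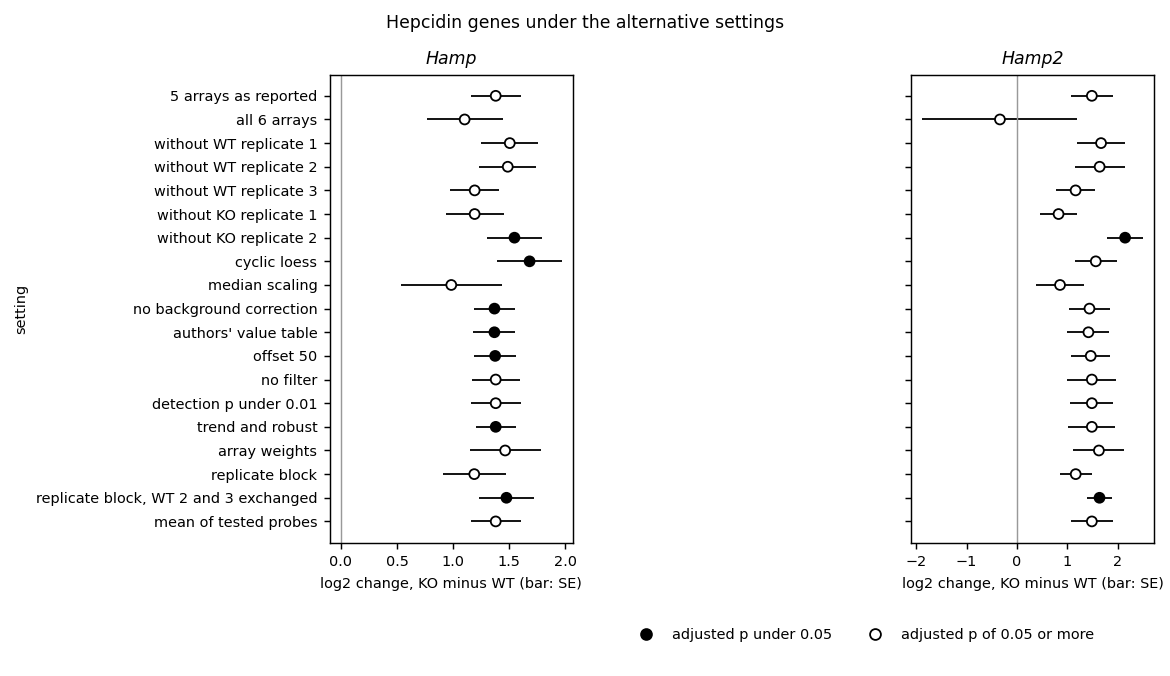
Log2 change of Hamp and Hamp2, KO minus WT (x axis), with SE bars, for the 5 arrays and 18 other settings (y axis), filled where the adjusted p was under 0.05. Hamp lies at 0.98 to 1.68 throughout and is called under 7 settings. Hamp2 is called under 2 and lies below 0 when KO array 3 is included.

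Upstream of hepcidin, Bmp6 is the ligand that reports liver iron and is made mostly by sinusoidal endothelial cells. Its probe had signals of 98.1, 100 and 84.1 in KO mice, against 94.9, 89.8 and 94.0 in WT mice, and was detected on 1 of the 3 KO arrays and on none of the WT arrays. It was not tested, and its level could not be measured on these arrays. Hfe2, which encodes hemojuvelin, the BMP co-receptor of hepatocytes, was also near background. Its tested probe had signals of 98.5, 102 and 77.6 in KO mice, against 101, 98.8 and 90.4 in WT mice, and a log2 change of 0.10 ± 0.17 (SE; adjusted p = 0.826). With all 6 arrays it stood at -0.053 ± 0.23 (SE). Its second probe, detected on none of the KO arrays and on 2 of the WT arrays, did not pass the filter.

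Hfe encodes a relative of MHC class I molecules that is lost in hereditary hemochromatosis. Its brighter probe had signals of 151, 324 and 79.6 in KO mice, against 271, 289 and 275 in WT mice. KO mouse 1 lay below and KO mouse 2 above the WT mice. The log2 change after normalization was 0.02 ± 0.19 (SE; 95% interval -0.42 to 0.46; adjusted p = 0.979). The dimmer probe, at 110, 144 and 86.6 against 158, 164 and 152, was below all WT mice in every KO mouse. These deposited signals are not scaled for the dimmer KO arrays 1 and 3, and KO array 3 did not detect the probe. After normalization of the 5 arrays the dimmer probe gave -0.42 ± 0.18 (SE; adjusted p = 0.407 in limma), so the 2 probes of Hfe differ in what they show. With all 6 arrays the brighter probe stood at -1.03 ± 0.87 and the dimmer at -0.61 ± 0.27 (SE).

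Tfr2 encodes transferrin receptor 2, which senses iron-loaded transferrin on hepatocytes. Its brighter probe had signals of 312, 893 and 93.0 in KO mice, against 872, 735 and 727 in WT mice. The normalized levels were close, 9.36 ± 0.03 (SD, n = 2) in KO and 9.29 ± 0.05 (SD, n = 3) in WT livers. The log2 change was 0.06 ± 0.15 (SE; adjusted p = 0.88), with a 95% interval of -0.29 to 0.41, and the dimmer probe gave 0.10 ± 0.25 (adjusted p = 0.891). With all 6 arrays the probes stood at -0.11 ± 0.23 and -1.03 ± 0.95 (SE).

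Tmprss6 encodes matriptase-2, a protease of hepatocytes that cleaves hemojuvelin and so restrains hepcidin. At its brighter probe the signals were 219, 627 and 84.4 in KO mice, against 833, 589 and 662 in WT mice. The normalized levels did not overlap, with 8.62 and 8.77 in KO mice 1 and 2, against 9.17, 8.98 and 9.16 in WT mice. The log2 change was -0.41 ± 0.16 (SE; 95% interval -0.78 to -0.04), unadjusted p = 0.033 and adjusted p = 0.388 in limma. The dimmer probe gave -0.13 ± 0.17 (adjusted p = 0.767), with groups that overlapped. The brighter probe lay below 0 under all 18 other settings, and its adjusted p ran from 0.0731 to 0.941. Its size depended on the setting, with -1.76 ± 1.11 (SE) for all 6 arrays and -1.14 under median scaling, and the dimmer probe stood at -1.03 ± 0.76 with all 6 arrays.

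**Figure D4:**
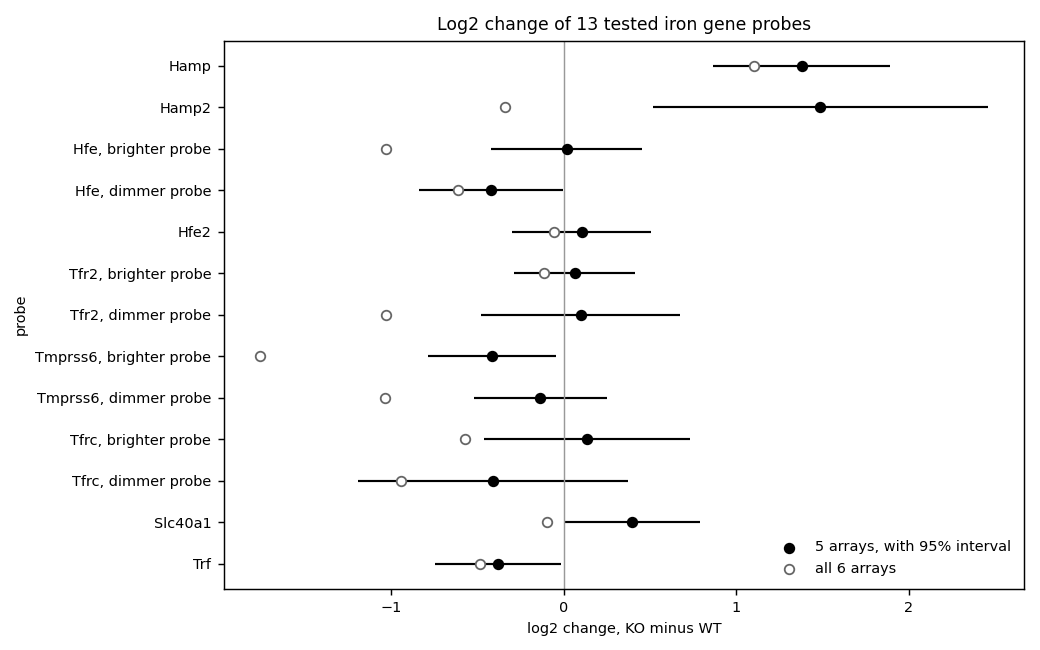
Log2 change, KO minus WT (x axis), of the 13 tested probes (y axis) on the 5 arrays, with 95% intervals, and on all 6 arrays as open circles. The intervals of Hamp, Hamp2 and Slc40a1 lie above 0, those of Trf, the brighter Tmprss6 probe and the dimmer Hfe probe lie below it, and all 13 open circles lie to the left of their filled ones.

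Among the iron carriers, Slc40a1 encodes ferroportin, the target of hepcidin. Its signals were 665, 2133 and 94.3 in KO mice, against 1946, 1280 and 1236 in WT mice. Normalized log2 levels were 10.63 and 10.69 in KO mice 1 and 2, against 10.47, 10.19 and 10.14 in WT mice, a log2 change of 0.40 ± 0.17 (SE; 95% interval 0.0024 to 0.79; adjusted p = 0.411). Before normalization KO mouse 1 was below every WT mouse, and with all 6 arrays the change was -0.10 ± 0.45.

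Ferroportin is also abundant in Kupffer cells, the macrophages of the liver. In bulk liver, fewer cells of a type and less RNA per cell cannot be told apart. Of 7 tested Kupffer cell and macrophage markers, 6 lay above 0 and 0 were called. Their mean normalized log2 level was 7.06 and 7.31 in KO mice 1 and 2, against 6.82 to 7.004 in WT mice, and their summed deposited signal was 1076, 2405 and 593 in KO mice 1, 2 and 3, against 1745 to 2101 in WT mice. The brightest, Vsig4 and Clec4f, stood at 0.09 ± 0.16 and 0.04 ± 0.16 (SE). Others, named after their values were seen, lay further above 0 with groups that did not overlap: Marco at 0.95 ± 0.26 (SE; adjusted p = 0.252), Adgre1 at 0.69 ± 0.17 (adjusted p = 0.219) and Cd68 at 0.47 ± 0.22 (adjusted p = 0.445). Marco and Adgre1 had unadjusted p-values of 0.00641 and 0.00369. Csf1r, also named later and counted above 0, stood at 0.001 ± 0.16 (SE). Cd163 was the 1 marker below 0, at -0.29 ± 0.16 (SE; adjusted p = 0.507), and its groups did not overlap either. Of all tested probes, 29.3% had groups that did not overlap. Of the 8 markers on the array, Cd5l did not pass the detection filter. The part of these cells in the Slc40a1 value was not tested.

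Trf encodes transferrin, the plasma iron carrier that hepatocytes secrete. Its signals were 10456, 22323 and 629 in KO mice, against 26229, 22690 and 25375 in WT mice, lower in every KO mouse than in any WT mouse. These signals are not normalized, and KO arrays 1 and 3 were dim. On KO array 2 the signal was close to the lowest WT signal, 22323 against 22690. After normalization the levels were 14.14 ± 0.11 (SD, n = 2) in KO and 14.52 ± 0.08 (SD, n = 3) in WT livers. The log2 change was -0.38 ± 0.16 (SE; 95% interval -0.75 to -0.02; adjusted p = 0.398). It was -0.49 ± 0.21 (SE) with all 6 arrays, -0.23 without KO mouse 1, and -0.029 with cyclic loess in place of quantile normalization (adjusted p = 0.974), where the difference was nearly gone. By place in the order of signals, 34, 25 and 43 probes were brighter than Trf on KO arrays 1, 2 and 3, against 11, 16 and 8 on the WT arrays (exact permutation p = 0.1, the smallest possible, and 0.15 adjusted over the 3 genes). Trf was picked for this reading with its values known, so these p-values add nothing to the separation. As for Hamp, the share of all probes that separate by place is not given here.

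Tfrc encodes transferrin receptor 1, which takes up transferrin-bound iron and is abundant in red cell precursors. Its brighter probe had signals of 120, 286 and 85.6 in KO mice, against 203, 203 and 182 in WT mice. The other probe had 109, 256 and 85.7, against 214, 199 and 202. At both probes KO mouse 1 was below and KO mouse 2 above all WT mice. The log2 changes were 0.14 ± 0.26 and -0.41 ± 0.34 (SE; adjusted p = 0.851 and 0.643), and with all 6 arrays -0.57 ± 0.64 and -0.94 ± 0.57. Blood transcripts also differed between the KO mice. The summed deposited signal of 4 tested erythroid markers was 3973, 28403 and 1130 in KO mice 1, 2 and 3. In WT mice it was 22785 to 26957, and these sums are not scaled for the dimmer KO arrays 1 and 3. The most abundant of the markers, Hbb-b1 and Hba-a1, had log2 changes of -0.64 ± 0.35 and -0.69 ± 0.36 (SE), with adjusted p-values of 0.493 and 0.478. With all 6 arrays normalized together, Hba-a1 had log2 levels of 11.68, 13.06 and 13.30 in KO mice 1, 2 and 3. The WT mice had 12.95 to 13.27. Alas2, named after its values were seen, had 8.45 and 8.11 in KO mice 1 and 2 on the 5 arrays, against 8.30 to 8.48 in WT mice. The part of blood transcripts in the values of Tfrc was not tested.

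Other genes of iron handling were read from 5 lists of textbook genes, and 0 of their tested members were called. BMP and SMAD signalling had 13 tested genes, 8 above 0 and 5 below, with a median log2 change of 0.09. Id1, a SMAD target that often moves with hepcidin, had the smallest p of the list, with signals of 109, 164 and 85.5 in KO mice, against 127, 121 and 113 in WT mice and a log2 change of 0.55 ± 0.18 (SE; adjusted p = 0.324), which was 0.10 ± 0.39 with all 6 arrays. The receptor Acvr1 stood at 0.46 ± 0.20 and the BMP co-receptor partner Neo1 at -0.43 ± 0.17, each with an unadjusted p under 0.05. The other tested BMP receptors, Bmpr1a and Bmpr2, named after their values were seen, stood at -0.79 ± 0.37 and -0.23 ± 0.20 (SE). Smad6 and Smad7, inhibitory SMADs that BMP signals induce, and Bmp2 did not pass the detection filter.

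IL-6 and STAT3 signalling had 8 tested genes, 4 on each side of 0 (median -0.03). Socs3, the feedback inhibitor that STAT3 induces, stood at -0.62 ± 0.26 (SE; adjusted p = 0.399), Cish at -0.38 ± 0.23 and the kinase Jak2 at -0.34 ± 0.18. Socs3 and Id1 thus had opposite signs, and neither passed the threshold.

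Genes of iron storage, uptake, export and redox had 18 tested members, 11 above 0 and 7 below (median 0.08). The metal importer Slc39a8 stood at -0.67 ± 0.20 (SE; adjusted p = 0.295), the iron transporter Slc11a2 at 0.34 ± 0.18 and the iron sensor Ireb2 at -0.28 ± 0.16. Heme and hemoglobin scavenging and heme turnover had 12 tested members, 7 above 0 and 5 below (median 0.06). There, the heme oxygenase Hmox1 stood at 0.48 ± 0.25 (SE; adjusted p = 0.478), the hemoglobin receptor Cd163 at -0.29 ± 0.16 and haptoglobin (Hp) at 0.26 ± 0.18. Of erythroid regulators of hepcidin, Gdf15 and Twsg1 were tested, at -0.19 ± 0.53 and -0.04 ± 0.19, while Epo and Erfe did not pass the detection filter. In all 6 arrays the medians of the 5 lists were -0.39, -0.32, -0.07, -0.17 and -1.10, where the median of all tested probes was -0.28.

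**Figure D5:**
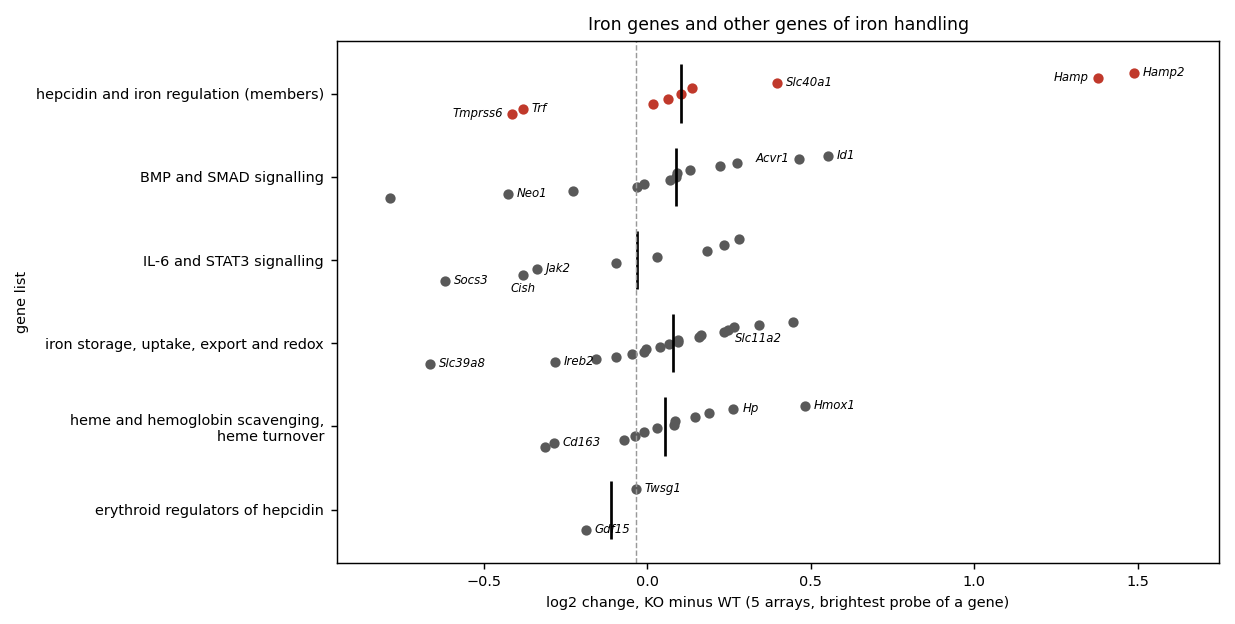
Log2 change, KO minus WT (x axis), of each tested gene at its brightest probe, for the iron genes in red and 5 lists of other iron-handling genes in grey (y axis). Vertical bars mark list medians and the dashed line marks the median of all tested probes, -0.03. Hamp and Hamp2, at 1.38 and 1.49, lie to the right of all other points shown.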

How the data were processed

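The deposited table of each array holds an average signal per probe, an intensity on a linear scale, and a detection p-value per probe, per the file headers. By its values the signal was neither normalized between arrays nor background-subtracted. The submitters' processing notes name BeadStudio 3. The authors' deposited value table, by its values intensities normalized between arrays by a method not given in the sources used here, served as an alternative.

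From the signals, neqc of limma (version 3.58.1, R 4.3.3) gave log2 levels with normexp background parameters that it infers through the detection p-values, quantile normalization and an added offset of 16. Probes detected (p below 0.05) on 3 or more arrays were fitted on genotype with lmFit and eBayes, two-sided, with Benjamini-Hochberg adjustment over all 14345 probes. A gene is given by its brightest tested probe. Replicates are separate mice, and their number limits precision. Names were updated through a gene table of GRCm38.p6. Promoters were aligned with Biopython 1.88 and figures drawn with matplotlib 3.10.9.

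On simulated data for this comparison with 15753 probes, 30 of 39 probes set to a log2 change of -2 were called, and 7 of 42 at -1. The calls were 12 of 50 at 1, 48 of 50 at 2, and 2 of 15572 unchanged ones. The simulated arrays had the same background and brightness, with no dim array like KO array 1. Probe noise was assumed rather than estimated from these data, and was the same for all simulated arrays. Changes were set only in well detected probes. The shares called may therefore differ on the real arrays.

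The members, lists and settings, and the choice of 5 arrays, were made with earlier results of these data known. Named were Creb3l3, all members, up to 3 genes of each iron-handling list by smallest p, the 2 brightest markers of lists used, and the 5 genes most like Hamp. Alternatives covered arrays, normalization, background, filter, variance model, weights, pairing and probe choice. Whether replicate numbers pair the mice could not be decided. Deviations from group means of same-numbered mice correlated at -0.05, -0.05 and 0.04. The KO mean used there included the dim KO array 3, which can hide a pairing. The numbers of WT replicates 2 and 3 are also uncertain, because the authors' columns exchange them.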

Additional observations from a re-analysis of the deposited data

How the results depend on the processing

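Hamp lay above 0 under all 18 alternatives. It passed the threshold with cyclic loess (log2 change 1.68), no background correction (1.37), the authors' value table (1.37), an offset of 50 (1.37), a trended and robust variance (1.38) and a replicate block in which WT numbers 2 and 3 were exchanged (1.47). Without single mice its log2 change ran from 1.19 to 1.55, and it passed only without KO replicate 2. The number of iron genes called was 1 (Hamp) under the first 5 of these settings, 2 (Hamp and Hamp2) with the exchanged block, 0 to 2 without single mice, and 0 otherwise. With a replicate block as numbered in the titles 0 iron genes were called, and Hamp stood at 1.19 with an adjusted p of 0.103. Of 3 KO arrays, 1 correlated best with the WT array of its own number. The exchange was tried because the authors' columns for WT replicates 2 and 3 match the array tables of replicates 3 and 2.

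Signs of the genes near 0 depended on the setting. All 6 arrays put 8 of 9 genes below 0, median scaling 6, the mean of a gene's probes 4, and leaving out single mice 2 to 4. All 6 arrays gave -0.34 for Hamp2, -1.03 for Hfe, -0.053 for Hfe2, -0.11 for Tfr2, -0.57 for Tfrc and -0.10 for Slc40a1, where the median of all probes was -0.28. Median scaling, which moved that median to -0.42, gave -0.60 for Hfe, -0.69 for Tfr2, -0.36 for Tfrc and -0.33 for Slc40a1. Averaging probes gave -0.20 for Hfe and -0.14 for Tfrc. Without single mice Hfe ran from -0.13 (without WT replicate 1) to 0.12, with -0.024 without KO replicate 2, Tfrc from -0.29 (without KO replicate 2) to 0.25, and Hfe2 from -0.0014 (without WT replicate 3) to 0.17. Hfe2 was at -0.0011 with the replicate block. Tmprss6 and Trf lay below 0 throughout, but their sizes moved: Trf ran from -0.71 with median scaling to -0.029 with cyclic loess, with -0.23 without KO replicate 1, and Tmprss6 from -1.76 with all 6 arrays to -0.27 with averaged probes.

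Calls over all probes numbered 49 in the 5 arrays. They numbered 0 with all 6 arrays, 83 with cyclic loess, 4 with median scaling, 85 without background correction, 76 with the authors' table, 108 with an offset of 50, 1 without a filter, 122 with a trended and robust variance, 32 with array weights and 9 to 2234 without single mice. Of these last, 9 came without WT replicate 2 or 3 and 15 without WT replicate 1. Without KO replicate 1 or KO replicate 2 a single KO array is left and is assumed to vary like the WT arrays. Counts from those fits are therefore not given. The cause of these differences was not tested. Bmp6 and Hfe2 were limited by signals near background.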

Other observations

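The 5 genes whose centred log2 profile over the 5 arrays was most like that of Hamp were Mmd2, Adora1, Gnat1, Robo1 and Gm4956, at root mean square differences of 0.11 to 0.23, against a median of 0.75 over all tested probes. Their deposited signals on these arrays lay between 101 and 239, near background, where that of Hamp lay between 4935 and 17172. Their log2 changes ran from 0.98 to 1.55 with adjusted p-values of 0.0563 to 0.167, so none was called.

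In the GRCm38.p6 annotation Hamp lies between a Usf2 pseudogene, beyond which is Hamp2, and Usf2, a transcription factor gene, and Mag lies on the far side of Hamp2. These neighbours were looked up after the values of Hamp were seen. Of 3 Usf2 probes, 2 were tested, at log2 changes of -0.55 ± 0.23 (SE; adjusted p = 0.407) and -0.01 ± 0.15 (adjusted p = 0.99). Lsr, the next gene after Usf2, stood at 0.23 ± 0.21 (SE; adjusted p = 0.667), and Mag was not detected on enough arrays to be tested.

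Of the marker lists not described with a gene, liver sinusoidal endothelial cells had 7 tested markers, 4 above 0 and 3 below, and a median log2 change of 0.13. The brightest, Clec4g and Fcgr2b, stood at -0.42 ± 0.17 and -0.32 ± 0.22 (SE). Named after their values were seen, Lyve1 stood at 0.64 ± 0.25, the largest change of the list, Pecam1 at 0.27 ± 0.19 and Stab2 at 0.22 ± 0.22 (SE). Of 5 lymphocyte and neutrophil markers on the array, 2 were tested. S100a8 had signals of 105, 268 and 78.9 in KO mice 1, 2 and 3, against 143, 135 and 126 in WT mice, and S100a9 had 103, 164 and 77.7, against 115, 103 and 102. In these deposited signals both were higher in KO mouse 2 than in any WT mouse, and KO mouse 1 was not above the WT range. After normalization S100a9 had log2 levels of 5.27 and 6.16 in KO mice 1 and 2, against 5.13, 4.92 and 4.89 in WT mice, without overlap, a log2 change of 0.74 ± 0.26 (SE; adjusted p = 0.355). S100a8 stood at 0.53 ± 0.43 (SE; adjusted p = 0.638), with groups that overlapped. Pancreas acinar markers, included because Hamp2 is also transcribed in pancreas, had 2 of 5 genes tested, Cela1 at 0.03 ± 0.22 and Amy2 at -0.03 ± 0.20 (SE). Stellate cell markers had 3 of 7 tested, with Reln at -0.48 ± 0.18 (SE) and Hand2 at 0.12 ± 0.22. None of these markers was called.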
